A study of Mus musculus with 8 samples.

Results

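The mouse genome encodes 6 conventional actins, and all 6 were listed among the 30153 genes of the table: the cardiac and skeletal muscle actins Actc1 and Acta1, the smooth muscle actins Acta2 and Actg2, and the cytoplasmic actins Actb and Actg1. They were chosen by name, and each is given as its level and as its share of the summed level of the 6. Actin polymerises into filaments. In cardiomyocytes the striated muscle actins form the thin filament of the sarcomere, on which myosin pulls, while smooth muscle actin serves contraction of vessel walls and of activated fibroblasts, and the cytoplasmic actins form the cell cortex and migration machinery of every cell type. The rodent heart makes Acta1 before birth, replaces it largely by Actc1 in the adult, and is known to re-express it under load. Muscle actin genes are targets of serum response factor (SRF), which binds CArG boxes together with myocardin or the myocardin-related factors, and the latter are held in the cytoplasm by actin monomers.

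The libraries came from hearts of aged mice of the C57/BL6 strain, labelled as carrying haplotype II and described by the series title as overexpressing the human angiotensin type 1 receptor. The control group of 4 libraries received no named diet, and the other 4 came from such mice fed western diet, an energy-dense chow high in fat. Both groups share the transgene and the advanced age, so neither can be set here against mice without the receptor or against young mice. The labels give no promoter, sex, length of feeding or batch, and leave unsaid whether libraries stem from separate animals, so a p-value covers only the spread among the libraries, which may be technical.

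Levels are in TPM, transcripts per 1000000 transcripts, which corrects for transcript length and keeps no read depth, so the depth is unknown. The cardiomyocyte markers Myh6, Tnnt2, Tnni3, Actn2, Ryr2 and Pln summed to 17846 to 18290 TPM in control and to 18378, 16220, 15393 and 13626 TPM in western diet replicates 1 to 4. Libraries also differed in features the labels do not name. The 4 controls held 21.1 to 29.0 TPM of the Y-linked gene Eif2s3y, and western diet replicate 4 held 22.3 TPM, but western diet replicates 1 to 3 held 0 to 0.0231 TPM. Of the atrial myosin light chain Myl7, control replicates 1 and 3 held 184 and 1403 TPM, western diet replicate 2 held 335 TPM, and the others 1.10 to 2.87 TPM. Mitochondrially encoded transcripts took 27.3% of western diet replicate 1 and 34.6 to 39.3% of the others. In bulk tissue, fewer cells of a type and less RNA per cell cannot be told apart.

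The 6 coding sequences are alike, which bears on how well reads can be assigned. Over the aligned coding sequence Actc1 and Acta1 were 86.2% identical, Actc1 and Acta2 82.5%, Acta1 and Acta2 85.4%, and the cytoplasmic pair Actb and Actg1 88.7%. The stretch of 45 ungapped bases that differed most among the 6 lies near the start codon and is shown to make the differences visible. Capitals mark bases that differ from Actc1, and all sequences read 5′ to 3′ from GENCODE vM21 transcripts.
Actc1: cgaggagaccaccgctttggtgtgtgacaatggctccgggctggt
Acta1: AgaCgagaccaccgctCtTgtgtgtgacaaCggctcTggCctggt
Acta2: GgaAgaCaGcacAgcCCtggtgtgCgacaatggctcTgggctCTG
Actg2: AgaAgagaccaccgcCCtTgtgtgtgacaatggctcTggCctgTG
Actb: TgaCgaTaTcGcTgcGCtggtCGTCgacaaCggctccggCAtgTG
Actg1: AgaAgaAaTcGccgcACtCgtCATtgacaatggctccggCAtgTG
The stretch starts at coding base 12 of Actc1, Acta1 and Acta2, base 9 of Actg2 and base 6 of Actb and Actg1. Acta1 differed from Actc1 at 7 of these bases, Actg2 at 9, Acta2 at 12, Actg1 at 15 and Actb at 17.

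Counted in words of 31 bases, the muscle actins were distinguishable. Of the 1416 words of the Acta1 transcript, 95.6% occurred in no other GENCODE gene, and the share was 98.5% for Acta2, 98.5% for Actg2 and 99.2% for Actc1. Acta1 shared no such word with Actc1, and Acta2 shared none with Actc1 or Acta1. The words Acta1 shared with other actins were 57 with Actb and 29 with Actg1. The cytoplasmic actins were less distinct, with 64.7% of words unique for Actb and 42.9% for Actg1. None of the words within the Actg1 coding sequence was unique, while all outside it were, and 57.1% of the Actg1 words also occurred in pseudogenes. The 11 actin pseudogene rows that shared at least 10 such words summed to 0.136 to 1.42 TPM per library. The annotation used by the authors is not given in the sources used here, so these shares describe GENCODE vM21.

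RefSeq promoters, from 250 bases before to 50 after the annotated start on GRCm38.p6, were at hand for 4 of the 6 genes, Actc1, Acta1, Acta2 and Actg1. They are shown for the CArG box, the letters CC, then 6 letters that are each A or T, then GG, a pattern that reads alike on both strands. An exact match was found in 3 of the 4, against 1.63% of 32851 promoters of the same length. The Acta2 window held 2 boxes with 1 mismatch each, and windows with 2 or more boxes of at most 1 mismatch made up 3.70% of all. In the next lines capitals mark the box within 30 bases, all on the minus strand.
Actc1, chr2:114052903-114052932: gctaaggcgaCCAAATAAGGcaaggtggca
Acta1, chr8:123894829-123894858: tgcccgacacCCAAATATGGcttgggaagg
Actg1, chr11:120348566-120348595: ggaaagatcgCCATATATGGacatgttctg
Acta2, chr19:34255438-34255467: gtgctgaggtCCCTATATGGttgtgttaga
Acta2, chr19:34255388-34255417: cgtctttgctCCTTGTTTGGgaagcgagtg
The boxes begin 47, 73 and 90 bases before the RefSeq start in Actc1, Acta1 and Actg1, and 84 and 34 bases before it in Acta2. GENCODE vM21 starts the gene 673 bases upstream of the RefSeq start in Actc1, 217 in Acta2 and 47 in Actg1, so the boxes printed for Actc1 and Acta2 lie inside the GENCODE gene. The same promoter windows of Actc1 and Acta1 held 3 and 2 further boxes with 1 mismatch.

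The 250 bases before the RefSeq start of Acta1, the actin with the largest difference between the groups, are printed whole because its elements lie close together.
Acta1, chr8:123894776-123895025, minus strand: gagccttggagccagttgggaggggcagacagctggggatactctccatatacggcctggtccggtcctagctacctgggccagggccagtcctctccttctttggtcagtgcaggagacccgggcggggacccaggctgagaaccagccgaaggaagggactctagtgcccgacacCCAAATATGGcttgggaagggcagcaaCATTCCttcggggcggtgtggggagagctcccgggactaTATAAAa
Capitals mark, in order, the exact CArG box, the letters CATTCC of the MCAT element, and a TATA box searched as TATAAA, and these do not overlap. The MCAT letters were found on either strand of 14.7% of promoters and those of the TATA box of 13.6%. The TATA box begins 7 bases before the RefSeq start and 31 bases before the first base of the gene in GENCODE vM21. A match of letters is a description of the sequence only, and no binding was measured.

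Cardiac actin Actc1 made up 90.1 to 94.2% of actin TPM. Actc1 (ENSMUSG00000068614, GRCm38 chromosome 2, 114047282 to 114053548) was at 6525, 6505, 6815 and 7521 TPM in control replicates 1 to 4 and at 6548, 8264, 8542 and 6770 TPM in western diet replicates 1 to 4. Its means were 6841 ± 475 TPM in control and 7531 ± 1018 TPM with western diet (SD, n = 4 per group), a log2 fold change of 0.13 (SE 0.12) on the log2(TPM + 1) scale used for all fold changes here. The groups overlapped, with 2 western diet libraries above all controls and 2 within their range. By TPM, Actc1 ranked between 6 and 12 among the transcripts not encoded in mitochondria.

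Skeletal muscle actin Acta1 was higher in each western diet library than in each control. Acta1 (ENSMUSG00000031972, chromosome 8, 123891769 to 123894751) was at 126, 116, 98.9 and 70.3 TPM in control replicates 1 to 4. It was at 137, 448, 324 and 370.1 TPM in western diet replicates 1 to 4. Western diet replicate 1 lay just above the highest control, and the other 3 lay far above it. The means were 103 ± 24.3 and 319.95 ± 132 TPM, a ratio of 3.12 and a log2 fold change of 1.54 (SE 0.31). The 3 western diet libraries far above the controls for Acta1 were those below all controls in summed cardiomyocyte markers. Of these markers 1 of 6 had the higher mean with western diet. Most of the sum was Tnnt2 and Tnni3, which lay below all controls in these 3 libraries. Myh6 and Ryr2 lay within the control range in all 3, Actn2 in replicates 2 and 3, and Pln in replicate 3. The part of the marker levels in the Acta1 level and share was not tested.

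Vascular smooth muscle actin Acta2 was also higher in each western diet library, but with another order of libraries. Acta2 (ENSMUSG00000035783, chromosome 19, 34241090 to 34255590) was at 30.7, 26.3, 39.2 and 37.4 TPM in control replicates 1 to 4. It was at 117, 71.0, 87.1 and 47.9 TPM in western diet replicates 1 to 4. Replicate 1, the lowest of the western diet group for Acta1, was its highest for Acta2, and replicate 4, among the highest for Acta1, was nearest to the controls for Acta2. The means were 33.4 ± 5.99 and 80.8 ± 29.1 TPM, a ratio of 2.42 and a log2 fold change of 1.20 (SE 0.23).

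The remaining 3 actins overlapped between the groups. Actg2, the actin of gut and other visceral smooth muscle (ENSMUSG00000059430, chromosome 6, 83512905 to 83536265), was at 0.475, 0.230, 0.577 and 0.548 TPM in control and at 0.245, 0.257, 0.283 and 0.318 TPM with western diet. It stayed below the minimum level for testing, so it has no fitted fold change. Actb (ENSMUSG00000029580, chromosome 5, 142903115 to 142906754) was at 163, 163, 196 and 185 TPM in control and at 178, 199, 166 and 159.5 TPM with western diet, with a log2 fold change of -0.01 (SE 0.10). Actg1 (ENSMUSG00000062825, chromosome 11, 120345690 to 120348542) was at 139.9, 155, 195 and 169 TPM in control and at 199.5, 185, 159.9 and 162 TPM with western diet, with a log2 fold change of 0.10 (SE 0.11). For both cytoplasmic actins the difference between the group means was smaller than the SD within a group.

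**Figure D1:**
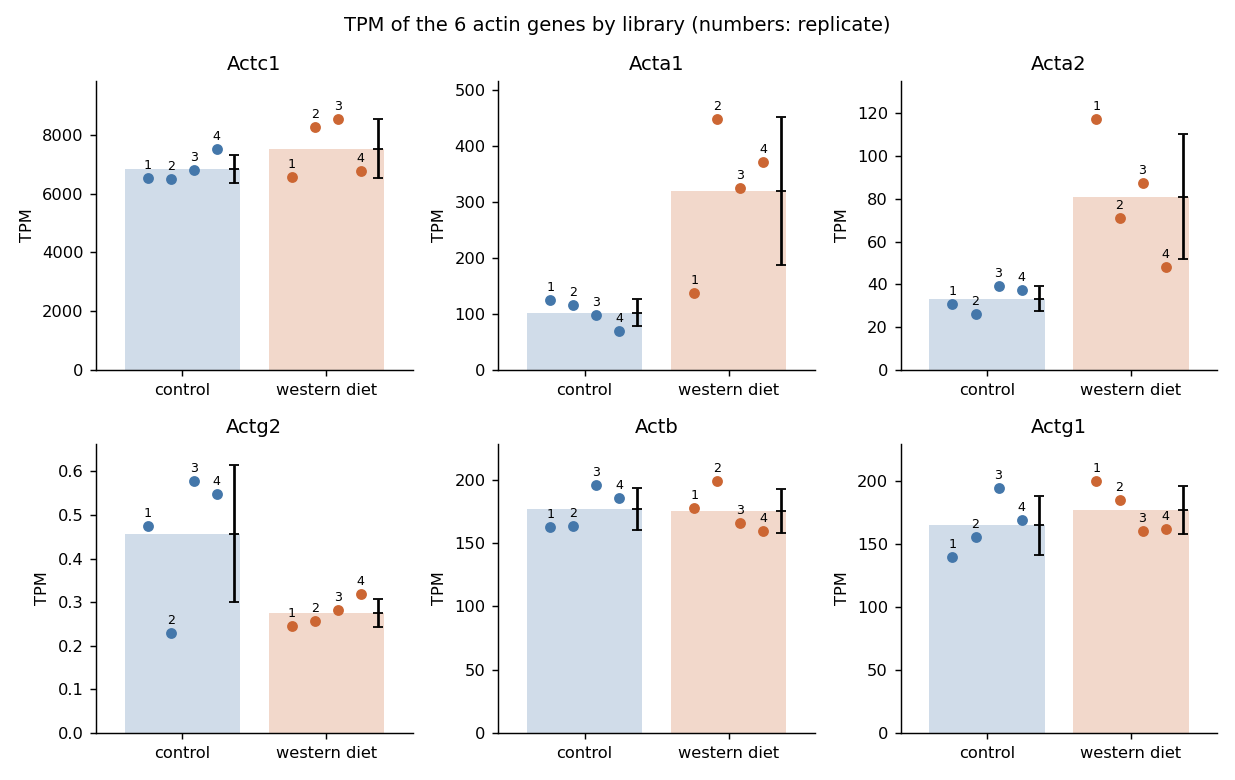
TPM of each actin (vertical axes, from 0, a scale of its own in each panel) in the 4 control and 4 western diet libraries. Bars are group means, points are libraries numbered by replicate and the whiskers beside the points are ± 1 SD. Only in the Acta1 and Acta2 panels do all western diet points lie above all control points.

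Among the 5 actins that were tested, Acta1 and Acta2 had groups that did not overlap, both higher with western diet, as 4.85% of the 10969 genes tested did (1.75% did so lower). No actin was among the 33 genes (0.301%) past a limma adjusted p of 0.05 over all genes, of which 0.228% were higher and 0.0729% lower. The actins were proposed with results of this comparison known, so nothing is read from these counts and no p-value is given for an actin. As a description, 7 genes (0.0638%) had a log2 fold change at least as high as that of Acta1, itself included, and 20 (0.182%) at least as high as that of Acta2.

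The values were set beside the library features. With a model term for the Y-linked transcripts, where the diet estimate rests on western diet replicate 4, the log2 fold change was 0.53 (SE 0.26) for Acta2 and 1.87 (SE 0.51) for Acta1. Without the 3 libraries with atrial transcripts it was 1.30 (SE 0.31) for Acta2 and 1.49 (SE 0.37) for Acta1. After removal of the mitochondrially encoded transcripts from the total it was 1.21 (SE 0.21) and 1.54 (SE 0.35). The part of these features in the differences was not tested beyond these values, and Y-linked transcripts and diet cannot be told apart in western diet replicates 1 to 3. Leaving out western diet replicate 1 gave 0.99 (SE 0.19) for Acta2 and 1.90 (SE 0.18) for Acta1.

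The order of levels was Actc1, then a middle group, then Acta2, then Actg2. In control, the means of Actb (177 ± 16.4 TPM) and Actg1 (165 ± 23.2 TPM) differed by less than their SD between libraries. Acta1 lay below both, with its highest library, 126 TPM, under the lowest of either. With western diet, the means of Actb (175 ± 17.2 TPM) and Actg1 (177 ± 19.0 TPM) again differed by less than their SD. Acta1 lay above both in replicates 2, 3 and 4 and below both in replicate 1. Acta2 stayed below Actb and Actg1 in all 8 libraries, and also below Acta1. The ratio of Actb to Actg1 within a library was 1.08 ± 0.0671 in control and 0.996 ± 0.0786 with western diet, with overlapping groups. It was 1.005 to 1.16 in the controls, so Actb lay above Actg1 in each, and 0.892 to 1.07 with western diet.

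As shares of the summed actin TPM, western diet libraries held less Actc1 and more Acta1 and Acta2. The share of Actc1 was 93.4, 93.4, 92.8 and 94.2% in control and 91.2, 90.2, 92.1 and 90.1% with western diet, so that all western diet libraries lay below all controls. The share of Acta1 was 1.80, 1.66, 1.35 and 0.881% in control and 1.91, 4.89, 3.49 and 4.93% with western diet. The share of Acta2 was 0.439, 0.377, 0.533 and 0.469% in control and 1.63, 0.774, 0.939 and 0.638% with western diet. The group means differed by -2.57 percentage points for Actc1, by 2.38 for Acta1 and by 0.542 for Acta2, the last being 0.329 without western diet replicate 1. The share of Actc1 was lower although its mean TPM was not. These shares carry the same values as the levels above.

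The joint share of the striated muscle actins overlapped between the groups. Acta1 and Actc1 together were 94.9 ± 0.492% of actin in control and 94.7 ± 1.08% with western diet. Within that pair, Acta1 amounted to 1.93, 1.78, 1.45 and 0.935% of Actc1 in control and to 2.10, 5.42, 3.79 and 5.47% with western diet. The cytoplasmic actins together were at 4.66 ± 0.444% and 4.31 ± 0.720%, with overlapping groups, and Actg2 at 0.00621 ± 0.00200% and 0.00338 ± 0.000629%. Summed over the 6 genes, actin was at 7319 ± 476 TPM in control and 8284 ± 1094 TPM with western diet, and these groups overlapped. Without Actc1 the sum was 460 to 529 TPM in control and 633 to 903 TPM with western diet, which did not overlap.

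**Figure D2:**
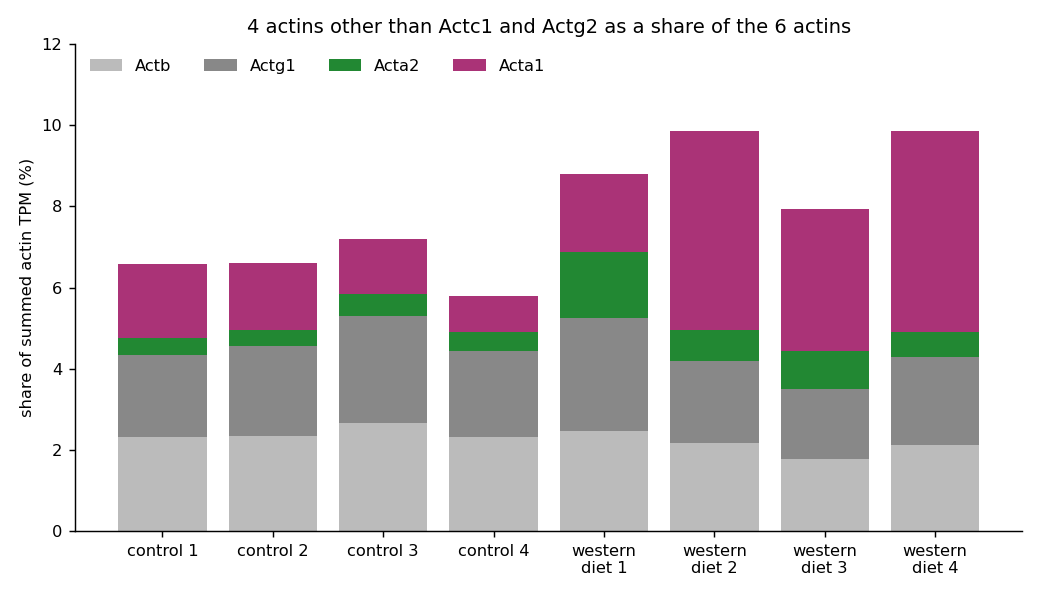
Stacked shares (vertical axis, percent of the summed TPM of the 6 actins) of Actb, Actg1, Acta2 and Acta1 in each library (horizontal axis). Actc1 makes up the rest, and Actg2, at 0.00280 to 0.00786%, is not drawn. The Acta1 segment is tallest in western diet replicates 2 and 4, at 4.89 and 4.93%, and the Acta2 segment in western diet replicate 1, at 1.63%.

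Tagln, a contractile gene of smooth muscle, went the opposite way to Acta2. This gene, which encodes the actin-binding protein transgelin, was at 19.7, 16.2, 21.1 and 17.3 TPM in control and at 10.9, 10.4, 7.92 and 10.8 TPM with western diet. It fell, with a log2 fold change of -0.83 (SE 0.12, limma adjusted p = 0.0169), and no western diet library reached a control. It was the 1 of 11 tested members of the smooth muscle contractile list past the threshold, where 0.301% of all genes passed. Tagln was also the 1 of 11 lower without overlap, beside 1.75% of all genes tested. Its log2 fold change was -0.80, -0.77 and -0.86 without control replicate 1, 3 or 4, with a limma adjusted p of 0.0652, 0.0643 and 0.0576. It was -0.72 both with the Y-linked term and without the libraries with atrial transcripts (limma adjusted p of 0.225 and 0.286), and with no filter on low values the limma adjusted p was 0.134 at the same fold change.

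Of these 11 genes 7 had a lower and 4 a higher mean, with a median log2 fold change of -0.12, against 0.06 over all genes tested. Myh11, the smooth muscle myosin heavy chain, was at 2.80, 3.30, 4.02 and 2.10 TPM in control and at 1.89, 1.35, 1.70 and 2.23 TPM with western diet (limma adjusted p = 0.220). Myl9, the regulatory light chain of smooth muscle and other non-striated myosin, was at 26.6 ± 6.99 and 17.9 ± 4.82 TPM (limma adjusted p = 0.315). Cnn1, calponin 1, stayed under 1 TPM everywhere, at 0.151 to 0.789 TPM, and was not tested. Relative to Tagln, Acta2 was at a ratio of 1.56 to 2.16 in control and 4.44 to 10.99 with western diet. Relative to Myh11 it was at 7.97 to 17.8 and 21.5 to 61.9. The ratio to Tagln restates levels that were each apart between the groups.

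**Figure D3:**
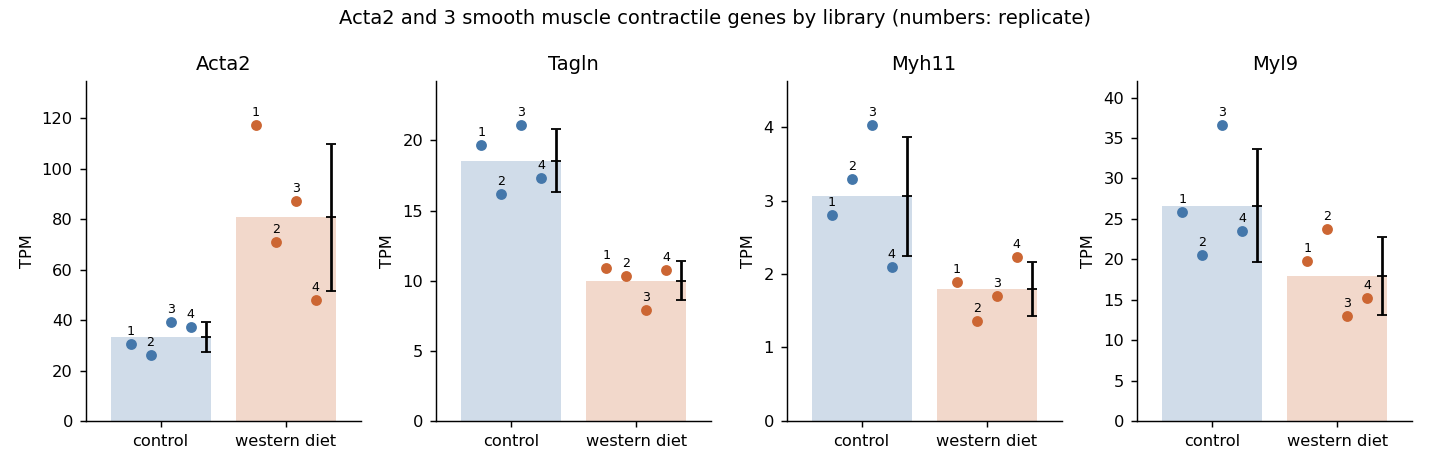
TPM (vertical axes, from 0) of Acta2, Tagln, Myh11 and Myl9 in control and western diet libraries, with bars for group means, numbered points for replicates and whiskers for ± 1 SD. Acta2 lies higher with western diet in all 4 libraries and Tagln lower in all 4, while Myh11 and Myl9 overlap.

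Markers of the cell types that could carry these actins were summed over fixed lists. The 6 smooth muscle markers, none an actin and all also on the contractile list, summed to 79.3 to 92.9 TPM in control and 63.4 to 78.5 TPM with western diet. All 6 had the lower mean with western diet. Most of that sum was Smtn, at 56.0 to 63.1 and 47.0 to 63.4 TPM, which overlapped. Of the 6 markers only Tagln did not overlap between the groups. The 7 pericyte markers summed to 197 to 233 and 200.05 to 218 TPM, the 6 fibroblast markers to 293 to 409 and 292 to 375 TPM, and the 5 endothelial markers to 134 to 166 and 149 to 163 TPM. These 3 sums overlapped between the groups. Higher means with western diet were found for 2 of 7 pericyte, 5 of 6 fibroblast and 3 of 5 endothelial markers. Most of the pericyte sum was Rgs5, at 119 to 138 TPM. Pdgfrb (13.6 to 15.8 against 10.1 to 12.1 TPM) and Kcnj8 (5.74 to 7.18 against 3.20 to 5.69 TPM) were lower with western diet without overlap. Of all genes tested 1.75% were lower without overlap. The 5 macrophage markers summed to 50.2 to 61.7 TPM in control and 62.1 to 100.1 TPM with western diet, with no overlap. Most of that sum was C1qa (35.4 to 41.7 against 43.2 to 75.9 TPM), which did not overlap. The groups of Cd68, Csf1r, Adgre1 and Fcgr1 overlapped. Of all genes tested 4.85% were higher without overlap. The part of the macrophage markers in the actin values was not tested.

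The 8 skeletal muscle markers stayed low in both groups, with sums of 4.43 to 5.13 TPM in control and 1.90 to 5.12 TPM with western diet, which overlapped. Tnnt3 (0.219 to 0.493 against 0.4995 to 1.21 TPM) was higher with western diet without overlap. Pvalb (1.04 to 1.13 against 0 to 0.788 TPM) and Mylpf (0.651 to 1.42 against 0 to 0.364 TPM) were lower without overlap. Of all genes tested 4.85% were higher and 1.75% lower without overlap, but only 2 of these 8 markers were tested. The fast myosin heavy chains Myh1, Myh2 and Myh4 were at 0 to 0.174 TPM over all libraries. The 4 kidney markers summed to 0 to 0.685 TPM in control and 9.02 to 79.0 TPM with western diet, and the highest value was in western diet replicate 4, where Acta2 was lowest in its group. Most of that sum was Kap, at 0 to 0.685 and 7.15 to 72.1 TPM. Umod, Miox and Slc34a1 were at 0 TPM in control and at 0 to 2.86 TPM with western diet. Only 1 of these 4 markers was tested. The part of such transcripts in the actin values was not tested. The 4 proliferation markers summed to 3.70 to 4.75 and 1.46 to 6.06 TPM.

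Partners of actin in the sarcomere gave no call. None of the 23 tested thin filament and sarcomere genes passed over all genes by limma, and 3 had an unadjusted p under 0.05, as 11.7% of all genes tested did. Their median log2 fold change was -0.04, with 10 higher and 13 lower means, where 66.4% of all genes had the higher mean. Pdlim5, a Z-disc protein that binds alpha-actinin, was at 301 ± 23.4 and 375 ± 43.4 TPM (limma adjusted p = 0.262). Lmod3, a leiomodin that nucleates actin filaments in muscle, was at 52.5 ± 3.47 and 43.2 ± 5.27 TPM (limma adjusted p = 0.294). Tmod4, a tropomodulin that caps filament ends, was at 22.9 ± 2.52 and 18.9 ± 0.806 TPM, with no overlap between the groups (limma adjusted p = 0.315). It was the 1 of 23 genes lower without overlap, and 0 were higher, beside 1.75% and 4.85% of all genes tested.

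Other genes that are often measured with Acta1 under cardiac load were looked at after their values were seen, and lie outside the rule for naming genes. Myh7, the beta myosin heavy chain, was at 44.7, 46.3, 67.5 and 58.6 TPM in control and at 66.7, 113, 46.3 and 45.7 TPM with western diet. Western diet replicate 2 was highest for both Myh7 and Acta1, but replicates 3 and 4, with Acta1 at 324 TPM or more, lay at the low end of Myh7. Nppb, which encodes brain natriuretic peptide, was at 278, 229, 284 and 254 TPM in control and at 78.6, 277, 151 and 482 TPM with western diet. The groups overlapped for both genes, with a limma adjusted p of 0.772 for Myh7 and 0.779 for Nppb. Among the western diet libraries, the lowest Nppb and the lowest Acta1 were both in replicate 1. Nppa was at 530, 97.4, 3562 and 131 TPM in control and at 70.0, 971, 96.5 and 171 TPM with western diet (limma adjusted p = 0.740). Its highest values were in the libraries with atrial transcripts. Myh6 was at 1377 ± 363 and 1281 ± 319 TPM (limma adjusted p = 0.901). Nppa and Myh6 also overlapped between the groups.

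The list of SRF, its cofactors and targets had more higher than lower means. Western diet means were the higher ones for 21 of 26 tested members and for 66.4% of all genes tested, and the median log2 fold changes were 0.18 and 0.06. By limma over all genes 0 rose and 1, Tagln, fell, and 9 had an unadjusted p under 0.05, where 11.7% of all genes did. Without overlap between the groups 4 of 26 were higher and 1, Tagln, lower, beside 4.85% and 1.75% of all genes tested. The 4 were Srf, Mrtfa, Thbs1 and Pdlim7, the last named after its values were seen. Srf itself was at 19.4, 14.9, 20.2 and 20.2 TPM in control and at 30.8, 29.96, 21.7 and 24.5 TPM with western diet, all above the controls (log2 fold change 0.49, SE 0.13, limma adjusted p = 0.177). Srf and Acta2 were both highest in western diet replicate 1, where Acta1 was lowest of its group. The second highest Srf, replicate 2, had the highest Acta1. Replicates 3 and 4, with the lowest Srf of the western diet group, held 324 and 370.1 TPM of Acta1.

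None of the cofactors of SRF passed the threshold. Myocd, myocardin, which drives muscle actin genes with SRF, was at 7.49, 5.41, 10.4 and 10.7 TPM in control and at 9.91, 14.3, 13.98 and 7.34 TPM with western diet (limma adjusted p = 0.560). Mrtfa and Mrtfb, the cofactors that actin monomers bind, were at 0.973 ± 0.0918 and 1.36 ± 0.134 TPM and at 3.67 ± 0.276 and 4.07 ± 0.616 TPM. Mrtfa did not overlap between the groups (limma adjusted p = 0.344), and Mrtfb did (limma adjusted p = 0.757). Both were named after their values were seen. Thbs1, thrombospondin 1, was at 1.62 ± 0.620 and 3.504 ± 1.07 TPM (limma adjusted p = 0.146).

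Tpm4 and Ankrd1 show how uneven the targets were, and were also picked after their values were seen. Tpm4, a tropomyosin of non-muscle cells that coats actin filaments, had the highest fold change of the list, with 13.6, 11.8, 15.4 and 20.5 TPM in control and 32.5, 58.0, 15.1 and 36.1 TPM with western diet (limma adjusted p = 0.223). Western diet replicate 3 lay within the controls and the other 3 above them. Ankrd1, a stretch-responsive titin-binding protein, was at 23.7 ± 10.96 and 17.1 ± 7.09 TPM (limma adjusted p = 0.664).

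Genes that assemble, turn over and anchor filaments gave no call. Among 37 tested genes of actin polymerisation and turnover 29 had the higher mean, with a median log2 fold change of 0.11, none passed by limma and 4 had an unadjusted p under 0.05. Over all genes tested these were 66.4% higher means, a median of 0.06 and 11.7% at that p. Tmsb10, thymosin beta 10, which sequesters actin monomers, was at 36.4, 36.8, 45.4 and 35.2 TPM in control and at 55.1, 47.9, 46.6 and 48.6 TPM with western diet (limma adjusted p = 0.180). Its groups did not overlap, nor did those of Pfn1 and Cfl1, which encode the monomer-binding profilin 1 and the severing protein cofilin 1. These 2 had log2 fold changes of 0.13 and 0.17 (both picked after their values were seen). So 3 of 37 genes were higher without overlap, beside 4.85% of all genes tested. Coro1a, a coronin of leukocytes, was at 4.91 ± 0.665 and 6.60 ± 0.736 TPM (limma adjusted p = 0.238). Enah, which promotes filament elongation, was at 24.3 ± 5.54 and 33.9 ± 7.72 TPM (limma adjusted p = 0.371).

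Crosslinkers and membrane anchors had 16 of 20 higher means and a median of 0.13, with 0 past the threshold by limma and 4 at an unadjusted p under 0.05, beside 66.4%, 0.06 and 11.7% over all genes. Lcp1, the leukocyte plastin, was at 7.47 ± 0.988 and 9.77 ± 1.77 TPM (limma adjusted p = 0.358). Lasp1, a protein of focal adhesions, was at 10.3 ± 1.78 and 12.7 ± 0.638 TPM, and Fscn1, the filament-bundling fascin, at 6.85 ± 1.89 and 9.62 ± 2.22 TPM.

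The folding machinery of actin gave no call either. Of 20 folding and modification genes, among them the chaperonin subunits that fold newly made actin, 14 had the higher mean, the median was 0.07 and none passed by limma, with 1 at an unadjusted p under 0.05. Higher means made up 66.4% of all genes tested, whose median was 0.06, and 11.7% reached that p. Mical3, of the family of actin-oxidising enzymes, was at 4.601 ± 0.929 and 6.17 ± 0.864 TPM (limma adjusted p = 0.349). Naa80, which acetylates the N-terminus of actin, was at 8.78 ± 0.752 and 10.6 ± 1.70 TPM, and the prefoldin subunit Pfdn4 at 13.2 ± 0.574 and 11.7 ± 0.848 TPM.

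Of 10 actin-related proteins 5 had the higher and 5 the lower mean, with 0 past the threshold and 1 at an unadjusted p under 0.05 by limma, against 66.4% higher means and 11.7% at that p over all genes. That 1 was Actr3b, a variant subunit of the filament-branching Arp2/3 complex, at 26.8, 29.9, 25.8 and 25.2 TPM in control and at 21.8, 19.7, 17.8 and 22.6 TPM with western diet. All 4 western diet libraries lay below the controls (log2 fold change -0.38, SE 0.10, limma adjusted p = 0.156). Actr3b was the 1 of 10 genes lower without overlap, and 0 were higher, beside 1.75% and 4.85% of all genes tested. Actr2, another subunit of that complex, was at 20.04 ± 2.40 and 21.3 ± 0.300 TPM, and Actl6a, an actin-like subunit of chromatin remodelling complexes, at 9.97 ± 0.938 and 10.96 ± 0.969 TPM.

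Myofibroblasts are fibroblasts that make Acta2, and their other genes entered the same fit. Of 9 tested members 7 had the higher mean, with a median log2 fold change of 0.08, 0 past the threshold by limma and 1 at an unadjusted p under 0.05. The same quantities over all genes tested were 66.4%, 0.06 and, at that p, 11.7%. That member was Col1a1, a chain of type I collagen, at 10.55, 8.66, 12.4 and 10.54 TPM in control and at 11.8, 16.6, 13.6 and 16.4 TPM with western diet (limma adjusted p = 0.227). Western diet replicate 1, highest for Acta2, was the lowest of its group for Col1a1. Col3a1, the type III collagen chain, was at 65.2 ± 11.7 and 74.6 ± 13.8 TPM, and Comp, a matrix protein of cartilage and fibrotic tissue, at 1.68 ± 1.44 and 0.877 ± 0.414 TPM.

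**Figure D4:**
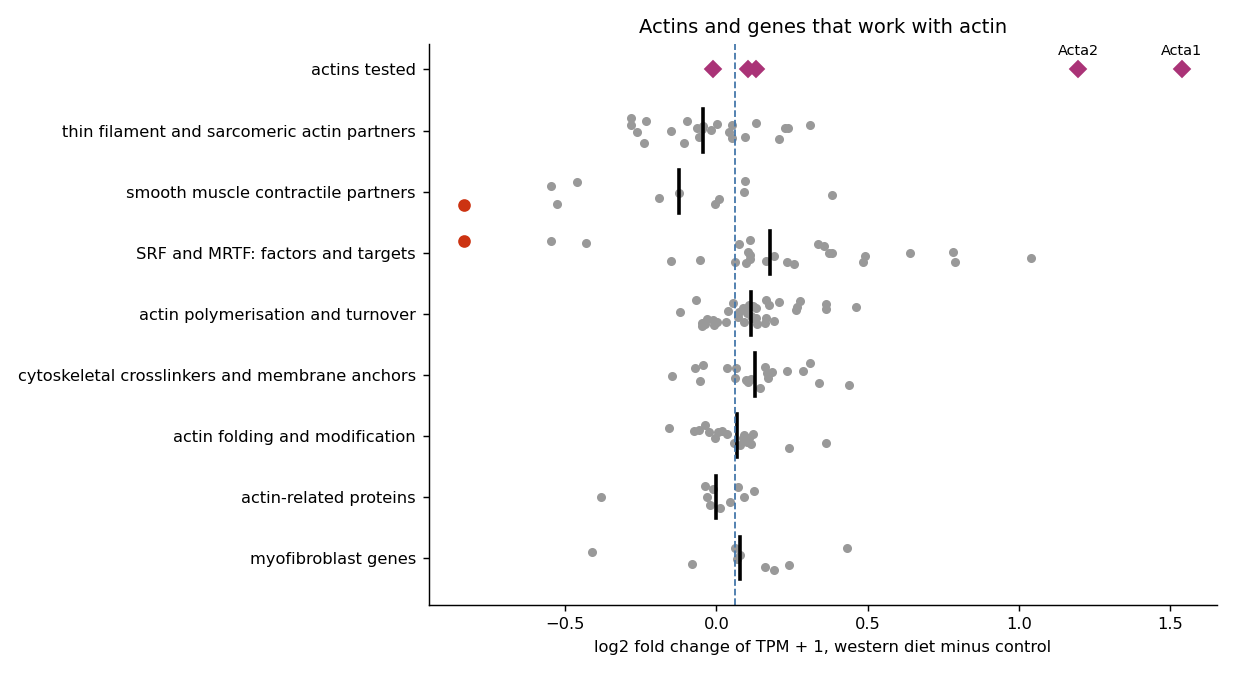
Log2 fold change of TPM + 1, western diet minus control (horizontal axis), for the 5 tested actins (diamonds) and each tested member of 8 lists (points, spread vertically for visibility). Black bars are list medians, the dashed line is the median of all genes tested, 0.06, and red marks Tagln, the member past a limma adjusted p of 0.05, which 2 lists hold. Acta1 at 1.54 and Acta2 at 1.20 lie to the right of every list member shown.

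The genes with the profile most like an actin were sought over the 8 libraries. This was done for the 2 actins that had a mean of at least 1 TPM and varied by at least 1.5 times. These were Acta1 (6.37 times between highest and lowest) and Acta2 (4.46 times). Likeness is the root-mean-square difference of log2(TPM + 1), each profile centred on its mean, over 6645 other genes of at least 5 TPM on average. Nearest to Acta1 were Ptgds, Cldn5 and Angptl4, with differences of 0.56, 0.58 and 0.61. Ptgds, a prostaglandin D synthase, was at 231, 294, 166 and 196 TPM in control and at 337, 458, 307 and 471 TPM with western diet. Like Acta1, it was highest in western diet replicates 2 and 4, but over a narrower range. Acta2 stood at a difference of 0.84 from Acta1, at rank 598 among the neighbours of Acta1. At that same difference, Acta1 stood at rank 6485 of 6645 among the neighbours of Acta2. Profiles were centred but not scaled, so the measure also counts how widely a gene varies. Actg1 and Actb, whose groups overlapped, stood nearer to Acta2 than Acta1 did, at ranks 1972 and 4399.

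The profile of Acta2 had closer neighbours, among them Slc25a22 and Ucp3, with differences of 0.23 and 0.28. Slc25a22, a mitochondrial glutamate carrier, was at 11.01, 9.04, 10.6 and 9.92 TPM in control and at 27.3, 24.8, 22.7 and 15.6 TPM with western diet. Ucp3, an uncoupling protein, was at 11.7, 11.1, 10.4 and 10.98 TPM and at 43.7, 36.4, 40.4 and 18.9 TPM. In both, western diet replicate 1 was highest and replicate 4 lowest within the group, as for Acta2. Neighbours of a profile with a group difference share that difference by construction, and the 8 libraries share their sum of TPM.

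**Figure D5:**
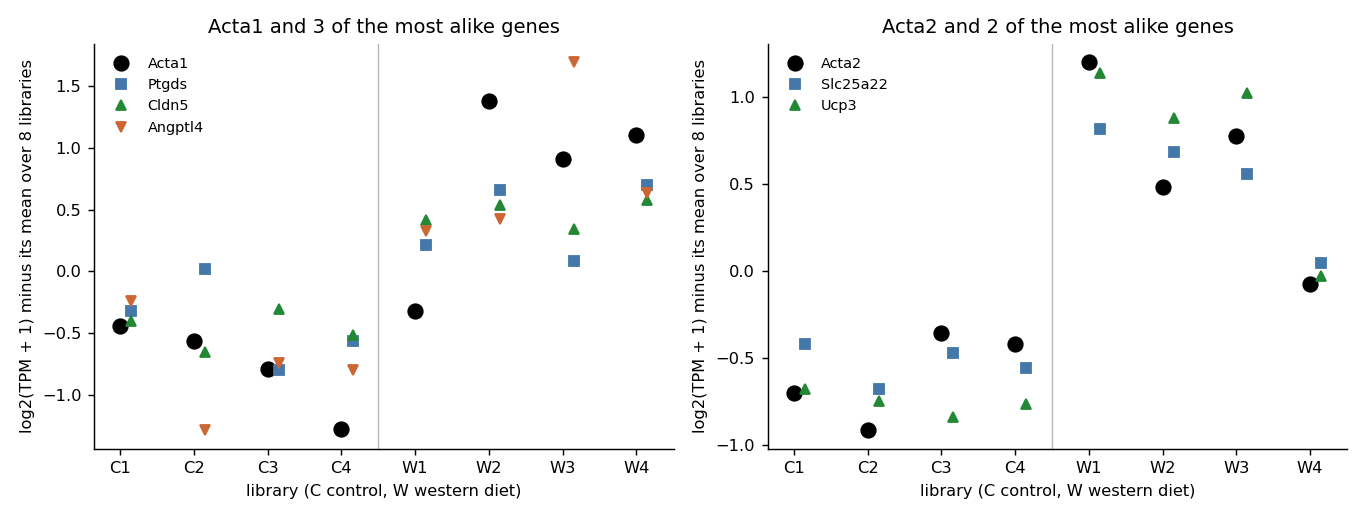
Level of Acta1 (left) and Acta2 (right) with 3 of the genes most like Acta1 and 2 of those most like Acta2, as log2(TPM + 1) minus its mean over the 8 libraries (vertical axis), by library (horizontal axis, C control and W western diet). The neighbours of Acta2 drawn lie within a difference of 0.28 of it, while those of Acta1 lie 0.56 or more from it.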

How the data were processed

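Heart RNA was sequenced in 8 libraries after pull-down of polyadenylated RNA, per the labels' protocols. Gene-level TPM are in the table as deposited by the authors. Without versions or roles, kallisto, DESeq2 and GRCm38 appear in the submitters' processing notes. The columns sum to 941318 to 953448 TPM, and 10620 to 11175 genes reach 1 TPM per library. TPM is relative and keeps no depth, so no counting error is given. Genes were named by GENCODE vM21 (29732 of 30153 identifiers).

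Genes of at least 1 TPM in at least 4 of 8 libraries, 10969 in all, entered a limma fit (version 3.58.1, R 4.3.3) of log2(TPM + 1) on group alone, with variance trend, which was tested on simulated data. P-values are two-sided, and the threshold is 0.05 after Benjamini-Hochberg adjustment. Fold changes on this scale understate the change of low genes. Groups come from the labels, and replicates are numbered in accession order, which pairs nothing.

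The actins, the 8 lists, the 10 marker lists and the alternatives were chosen with earlier results of these data known. Named are the actins, up to 4 members per list past the threshold, filled up to 3 by smallest p, a fixed set (Tagln, Myh11, Cnn1, Srf, Myocd, Myl7, Myl4, Eif2s3y) and the nearest profiles; predicted genes and pseudogenes are not named, and other genes are marked. A further list and 1 nearest profile are not reported here. Coding sequences were aligned with MAFFT, and words of 31 bases were counted on both strands. Tables and figures used Python 3.11.15, pandas 2.3.3 and matplotlib 3.10.9.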

Additional observations from a re-analysis of the deposited data

Results flagged for a closer look

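Of 86 groups of 4 values, 10 held a library set apart from the other 3 by more than a 95% limit for its gap, where chance gives about 1 in 20. The genes looked at always included Myl7, Myl4 and Eif2s3y, which follow the atrial and Y-linked differences between libraries described above. The count of 10 holds their groups, so it cannot be read against that chance. In control replicate 3, the library with the most atrial transcripts, the share of Actb in actin was 2.66% against 2.32 to 2.34% in the other controls. The same library had the highest control values of Tmsb10 (45.4 TPM against 35.2 to 36.8 TPM), Coro1a (5.91 against 4.52 to 4.64 TPM), Actl6a (11.4 against 9.39 to 9.65 TPM), Myl7 (1403 TPM) and Myl4 (1023 TPM). Srf was lowest in control replicate 2, at 14.9 TPM against 19.4 to 20.2 TPM. In the western diet group Myl7 (335 TPM) and Myl4 (223 TPM) stood apart in replicate 2 and Eif2s3y (22.3 TPM) in replicate 4. No actin stood apart in TPM within a group by this measure.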

How the results depend on the processing

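The log2 fold changes of Acta1, between 1.33 and 1.90, and of Acta2, between 0.99 and 1.42, stayed positive whichever library was left out. With the Y-linked term that of Acta2 was 0.53, further from 1.20 than the spread between replicates, and those of Actc1 and Actg1 were -0.01 and -0.01. Leaving out a library gave 0.07 to 0.20 for Actc1, 0.03 to 0.19 for Actg1 and -0.07 to 0.04 for Actb. The difference in share ranged from 2.01 to 3.01 percentage points for Acta1, 0.329 to 0.661 for Acta2 and -2.96 to -2.32 for Actc1. No share moved by more than the replicate spread, with actin pseudogenes in the denominator or without the libraries with atrial transcripts. The shares were not computed with the Y-linked term, under which the level of Acta2 moved. In western diet replicate 4, on which that estimate rests, the Acta2 share was 0.638%, against 0.377 to 0.533% in control.

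The count of genes past the threshold, 33, was 5 with no filter on low values, 15 at a mean of at least 5 TPM, 5 without the libraries with atrial transcripts and 54 with the Y-linked term. It ranged from 8 to 95 when a library was left out, with 15, 9, 13 and 8 without control replicates 1 to 4, and 54 and 95 without western diet replicates 3 and 4. Among the 8 lists the count, 1 (Tagln), was 0 with no filter, 0 without the atrial libraries and 0 with the Y-linked term. It ranged from 0 to 3 when a library was left out, with 0 without control replicate 1, 3 or 4, and Junb and Tpm4 were added without western diet replicate 3. Acta2 was among the genes past the threshold with mitochondria-free scaling and without western diet replicate 4, and Acta1 without western diet replicate 1, and nothing is read from this. Pseudocounts of 0.1 and 0.5 gave 35 and 32 genes, median-of-ratios scaling 49 and mitochondria-free scaling 43. Median-of-ratios scaling moved the median of all genes from 0.06 to -0.01. The cause of these changes was not tested. No paired analysis was possible because the replicate numbers pair nothing.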
